A study of Mus musculus with 13 samples.

Results

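Genes of the neutrophil and of inflammatory chemoattraction were followed in 13 mouse cutaneous melanomas. The genes were taken from a list of 10 probe sets given by identifier with gene names of the Affymetrix 430 design, namely S100a8 (1419394_s_at), S100a9 (1448756_at), Il1b (1449399_a_at), Cxcl1 (1419209_at), Cxcl2 (1449984_at), Ccl2 (1420380_at), Ccl7 (1421228_at), Ccl8 (1419684_at), Mmp9 (1416298_at) and Ptgs2 (1417262_at). All 10 probe sets were found among the 22690 of the deposited table. That table gives identifiers without genes, so the gene names rest on the list alone, and other probe sets of the same genes were not analysed here. The levels of these genes differed widely from tumor to tumor, by up to 8.97 log2 units for S100a9, and none differed between ARF-deficient and INK4a-deficient melanomas beyond the spread between tumors.

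The tumors comprised 6 ARF-deficient melanomas (5 ARF heterozygous and 1 ARF null) and 7 INK4a-deficient melanomas (4 INK4a null and 3 INK4a heterozygous), with 1 array for each. ARF and INK4a are both encoded by Cdkn2a: ARF acts on the p53 pathway and INK4a on cyclin D kinases. All the mice, in every group, carried a hepatocyte growth factor (HGF/SF) transgene under the control of metallothionein gene sequences, which are active in many tissues. In every mouse, melanoma was started by one exposure to UV light 3.5 days after birth, on a mixed background of about 90% FVB/N and 10% C57BL/6. No age at tumor collection is stated. For all 6 ARF-deficient tumors the title says Ink4a and the genotype label says ARF. The genotype labels were followed. The labels do not state that tumors came from separate mice, and the spread behind each p-value is that between the tumors given.

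Neutrophils are the first white cells to enter inflamed skin. They carry S100a8 and S100a9, the partners of calprotectin, in great amounts in their cytosol. Their entry is driven by CXC chemokines such as Cxcl1 and Cxcl2, which bind the receptor Cxcr2, whereas the CC chemokines Ccl2 and Ccl7 call monocytes through the receptor Ccr2. Interleukin 1 beta, the product of Il1b, induces several of these chemokines and Ptgs2 in skin and stromal cells, and the transcription factor NF-kB acts in that induction. The arrays measured whole tumor RNA, in which fewer cells of a type and less RNA per cell cannot be told apart.

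Each value below is a log2 value of a probe set centred on its median over the 13 tumors, so that 0 is the median tumor, a step of 1 is a doubling, and levels cannot be compared between genes. No source names the base of the logarithm, and 2 was assumed. Medians of the arrays ran from -0.05 to 0.05. The labelled tissue could not be checked against melanocyte markers, and neutrophil, macrophage and keratinocyte markers other than the 10 genes are not analysed here, since identifiers are not paired with genes. Tumors carry the numbers of their labels. A decimal ending such as 6.2 occurs in 5 INK4a-deficient tumors and in no ARF-deficient one, and no source explains it.

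Gene starts were examined in RefSeq sequence of build GRCm38.p6, where 7 of the 10 genes, all but Ccl2, Ccl7 and Mmp9, were matched to a window of 250 bases before to 50 bases after the start. The windows of the Cxcr2 ligands Cxcl1 and Cxcl2 are shown because both hold GGGAATTTCC, a form of the NF-kB site, and those of S100a8 and S100a9 because their values ran together most closely of all pairs. Capitals mark matches to GGGAATTTCC, to the NF-kB consensus, which overlaps it, or to TATAAA, each searched on both strands.
Cxcl1: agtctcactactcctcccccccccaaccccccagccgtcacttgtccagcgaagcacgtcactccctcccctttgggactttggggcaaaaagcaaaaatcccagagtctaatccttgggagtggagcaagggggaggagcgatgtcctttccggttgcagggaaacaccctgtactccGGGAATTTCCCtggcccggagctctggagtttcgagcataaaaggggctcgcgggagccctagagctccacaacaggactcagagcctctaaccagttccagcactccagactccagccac
Cxcl2: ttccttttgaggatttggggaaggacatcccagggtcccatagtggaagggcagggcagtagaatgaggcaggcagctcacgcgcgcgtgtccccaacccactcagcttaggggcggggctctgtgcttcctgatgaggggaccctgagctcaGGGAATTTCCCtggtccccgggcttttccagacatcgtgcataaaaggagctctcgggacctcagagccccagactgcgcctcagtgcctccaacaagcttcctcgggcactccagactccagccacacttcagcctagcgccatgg
S100a8: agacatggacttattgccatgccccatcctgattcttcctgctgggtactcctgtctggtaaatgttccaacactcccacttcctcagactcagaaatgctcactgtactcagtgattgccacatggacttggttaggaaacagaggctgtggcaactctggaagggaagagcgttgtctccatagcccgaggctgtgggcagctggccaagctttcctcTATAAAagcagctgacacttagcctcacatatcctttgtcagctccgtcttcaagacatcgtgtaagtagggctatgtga
S100a9: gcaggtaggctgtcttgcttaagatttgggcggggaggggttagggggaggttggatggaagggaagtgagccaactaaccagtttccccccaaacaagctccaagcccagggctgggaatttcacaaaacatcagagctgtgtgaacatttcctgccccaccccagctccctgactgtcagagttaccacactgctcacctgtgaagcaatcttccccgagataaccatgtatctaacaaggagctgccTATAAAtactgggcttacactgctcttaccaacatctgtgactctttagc
The Cxcl1 window lies at chr5:90890995-90891294 and the Cxcl2 window at chr5:90903649-90903948, both on the plus strand. The S100a8 window lies at chr3:90668821-90669120 on the plus strand and the S100a9 window at chr3:90695672-90695971 on the minus strand. GGGAATTTCC began 71 bases before the start of Cxcl1 and 97 bases before that of Cxcl2, and 24 of 27025 mouse windows of this length (0.0888%) held it. The NF-kB consensus was matched by the same 2 members, and by 8.18% of all windows. TATAAA was found in 4 members, S100a8, S100a9, Il1b and Ccl8, and in 14.2% of all windows. It began 30 bases before the start of S100a8, 31 before that of Il1b and 32 before that of Ccl8, and at the first base of the S100a9 transcript as annotated. In the same annotation S100a8 and S100a9 on chromosome 3, Cxcl1 and Cxcl2 on chromosome 5, and Ccl2 and Ccl7 on chromosome 11 are pairs of neighbors with 0 other protein-coding genes between them, and 2 lie between Ccl7 and Ccl8.

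The calprotectin genes had the widest spread. S100a9 had an SD of 3.09 over the 13 tumors, higher than 99.9% of all probe sets tested, and S100a8 had an SD of 2.40. The median SD was 1.66 over the 10 genes and 0.27 over all 22626 probe sets, and 7 of the 10 lay above the 95th percentile. In ARF-deficient melanomas, S100a9 stood at -2.20 in the lowest tumor, 0.85 at the median and 3.98 in the highest. In INK4a-deficient melanomas it stood at -3.40, -0.46 and 5.57 in the lowest, median and highest tumor. The ARF-deficient tumors thus lay inside the range of the INK4a-deficient ones. The highest values belonged to INK4a heterozygous tumors 6.2 (5.57) and 15 (5.04), ARF heterozygous tumor 12 (3.98) and INK4a null tumor 3 (3.82). The lowest were those of INK4a null tumors 1.2 (-3.40) and 2.2 (-3.29).

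S100a8 was high in the same tumors. It ran over -0.95, 0.72 and 3.15 (lowest, median and highest) in ARF-deficient melanomas, against -3.21, -0.47 and 4.23 in INK4a-deficient melanomas. Tumors 6.2 (4.23), 15 (3.82), 12 (3.15) and 3 (3.09) were again highest. Both genes had tumors far above and far below the median: 6 tumors stood above 1 for each gene, and 3 tumors for S100a8 and 4 for S100a9 stood below -1.

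Il1b and the CXC chemokine Cxcl2 showed another shape, with a long upper tail and almost no lower one. Il1b, the inflammatory cytokine, stood at -0.22, 0.53 and 1.37 (lowest, median and highest) in ARF-deficient melanomas. It stood at -0.51, -0.03 and 3.55 in INK4a-deficient melanomas, where tumor 15 held the highest value and the next was 1.02 in tumor 6.2. Of the 13 tumors, 7 lay within 0.5 of the median.

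Cxcl2, a neutrophil attractant, was the most extreme of these. It stood at -0.07, 0.63 and 5.03 (lowest, median and highest) in ARF-deficient melanomas, with the ARF null tumor 10 highest. In INK4a-deficient melanomas it stood at -0.39, -0.13 and 5.68, with tumor 15 highest. A set of 5 tumors, 15, 10, 12 (2.48), 6.2 (1.34) and 8 (1.22), lay above 1, and the other 8 lay within 0.5 of the median. The distance from the median to the highest tumor was 14.4 times that to the lowest.

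Cxcl1, which shares its receptor with Cxcl2, moved within a narrower range. Its values were -0.28, 0.35 and 0.56 (lowest, median and highest) in ARF-deficient melanomas and -0.59, -0.03 and 1.26 in INK4a-deficient melanomas. Only INK4a heterozygous tumors 15 (1.26) and 6.2 (1.23) lay above 1. The ARF null tumor 10, at 5.03 for Cxcl2, stood at 0.33 for Cxcl1.

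The CC chemokines differed among themselves. Ccl2 and Ccl7, which recruit monocytes, had SDs of 0.60 and 0.45, with Ccl7 at percentile 76.2 of all probe sets. Ccl2 stood at -0.58, -0.09 and 1.16 (lowest, median and highest) in ARF-deficient melanomas, against -0.26, 0.00 and 1.03 in INK4a-deficient melanomas. Ccl7 stood at -0.51, 0.07 and 1.17 in ARF-deficient melanomas, against -0.45, -0.07 and 0.26 in INK4a-deficient melanomas. For Ccl2 the high tumors were 8 (1.16), 12 (1.05) and 15 (1.03), and for Ccl7 tumor 12 alone lay above 1.

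Ccl8, known in the mouse as a ligand of Ccr8, had an SD of 1.92 and the deepest lower tail. It stood at -1.86, 0.34 and 2.47 (lowest, median and highest) in ARF-deficient melanomas, against -4.17, 0.00 and 1.62 in INK4a-deficient melanomas. The lowest were INK4a null tumors 1.2 (-4.17) and 2.2 (-2.27), the tumors that were also lowest for S100a9. Neither group lay apart from the other for any CC chemokine.

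The enzyme genes also had a long upper tail. Mmp9 encodes a gelatinase that is stored in neutrophil granules and made by macrophages and keratinocytes as well. It stood at -0.28, 0.01 and 2.32 (lowest, median and highest) in ARF-deficient melanomas, against -0.53, -0.13 and 5.11 in INK4a-deficient melanomas. The high tumors were 6.2 (5.11), 15 (3.95) and 12 (2.32), while the other 10 lay between -0.53 and 0.33.

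Ptgs2, the inducible cyclooxygenase of prostaglandin synthesis, stood at -0.32, 0.18 and 2.36 (lowest, median and highest) in ARF-deficient melanomas. In INK4a-deficient melanomas it stood at -0.31, -0.19 and 3.90. Tumors 15 (3.90), 6.2 (3.32), 12 (2.36) and 10 (1.92) were high, and the other 9 lay within 0.5 of the median. Tumor 10 was thus high for Ptgs2 and Cxcl2 and at the median, 0.00, for Mmp9.

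**Figure D1:**
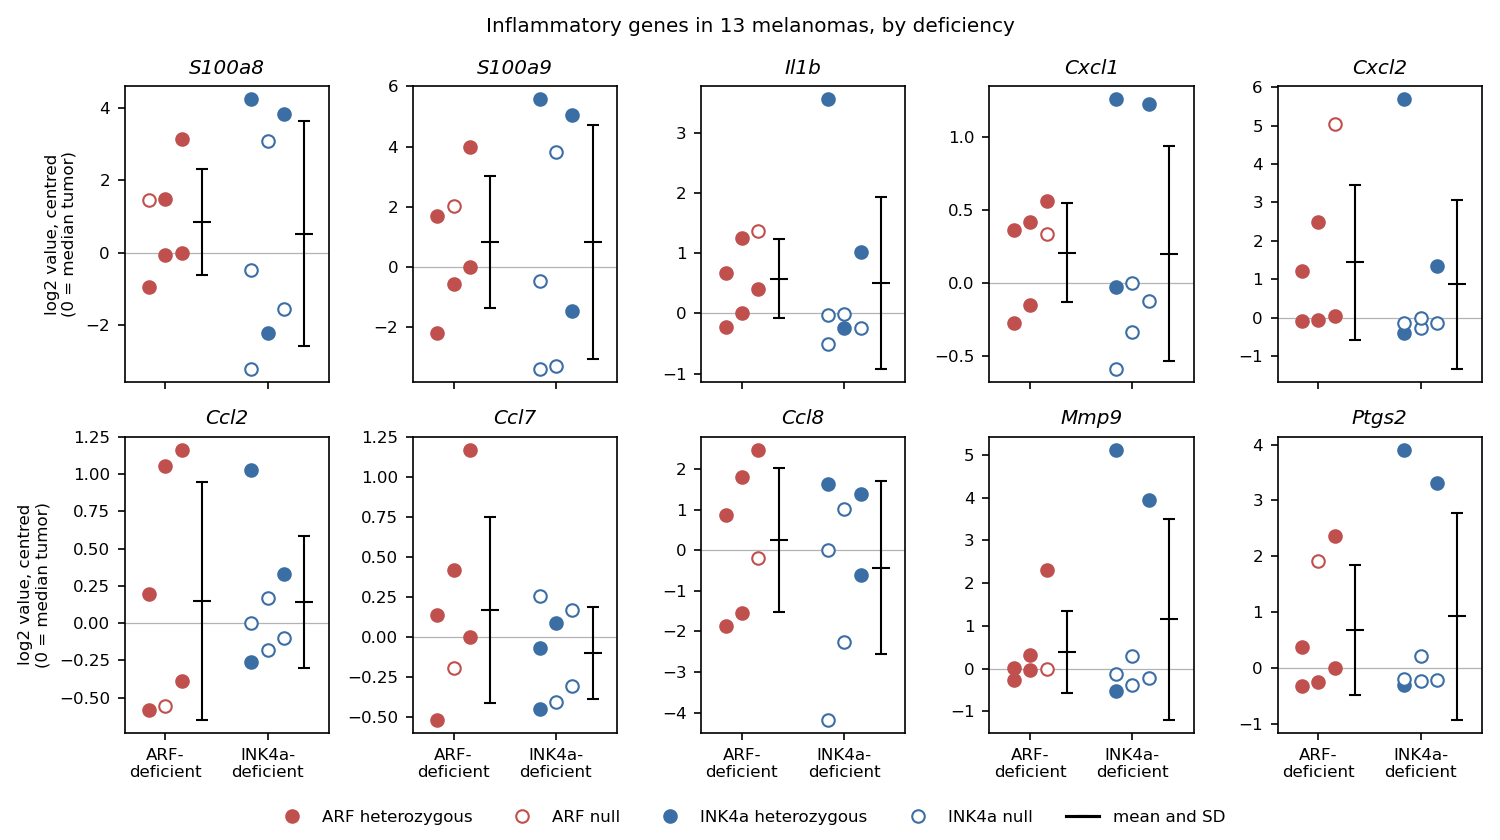
Centred log2 value of each gene (vertical axes, a scale of its own per gene) in ARF-deficient (n = 6, left) and INK4a-deficient (n = 7, right) melanomas; filled circles are heterozygous and open circles null tumors, and bars are mean and SD. The groups overlap for all 10 genes, and in INK4a-deficient melanomas the 2 high values of Mmp9, 5.11 and 3.95, belong to heterozygous tumors.

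Seen tumor by tumor, high values of many of the genes fell in the same few tumors, of both genotypes. INK4a heterozygous tumor 15 had 9 of the 10 genes above 1, against 3.14% of all probe sets on its array. ARF heterozygous tumor 12 also had 9 of the 10 above 1, against 5.17% of all probe sets, and INK4a heterozygous tumor 6.2 had 8, against 5.08%. The exceptions were Ccl7 in tumor 15 (0.09), Cxcl1 in tumor 12 (0.36), and Ccl2 (0.33) and Ccl7 (-0.07) in tumor 6.2. The shares of all probe sets above 1 were themselves highest in tumors 12 and 6.2. The 10 genes also varied more than most probe sets (median SD 1.66, against 0.27 over all). They therefore pass a step of 1 in either direction more readily, and the shares are no reference for genes of like spread. The ARF null tumor 10 had 5 genes above 1 (S100a8, S100a9, Il1b, Cxcl2 and Ptgs2), against 1.16% of all probe sets. The median of the 10 genes was 3.69 in tumor 15, 2.34 in tumor 12, 1.48 in tumor 6.2 and 0.85 in tumor 10, and lay between -0.46 and 0.42 in the other 9 tumors. At the low end, INK4a null tumor 1.2 had 3 genes below -1 (S100a8, S100a9 and Ccl8), against 3.96% of all probe sets. INK4a null tumor 2.2 had the same 3 genes below -1 (-1.56, -3.29 and -2.27 for S100a8, S100a9 and Ccl8), against 2.46% of all probe sets.

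**Figure D2:**
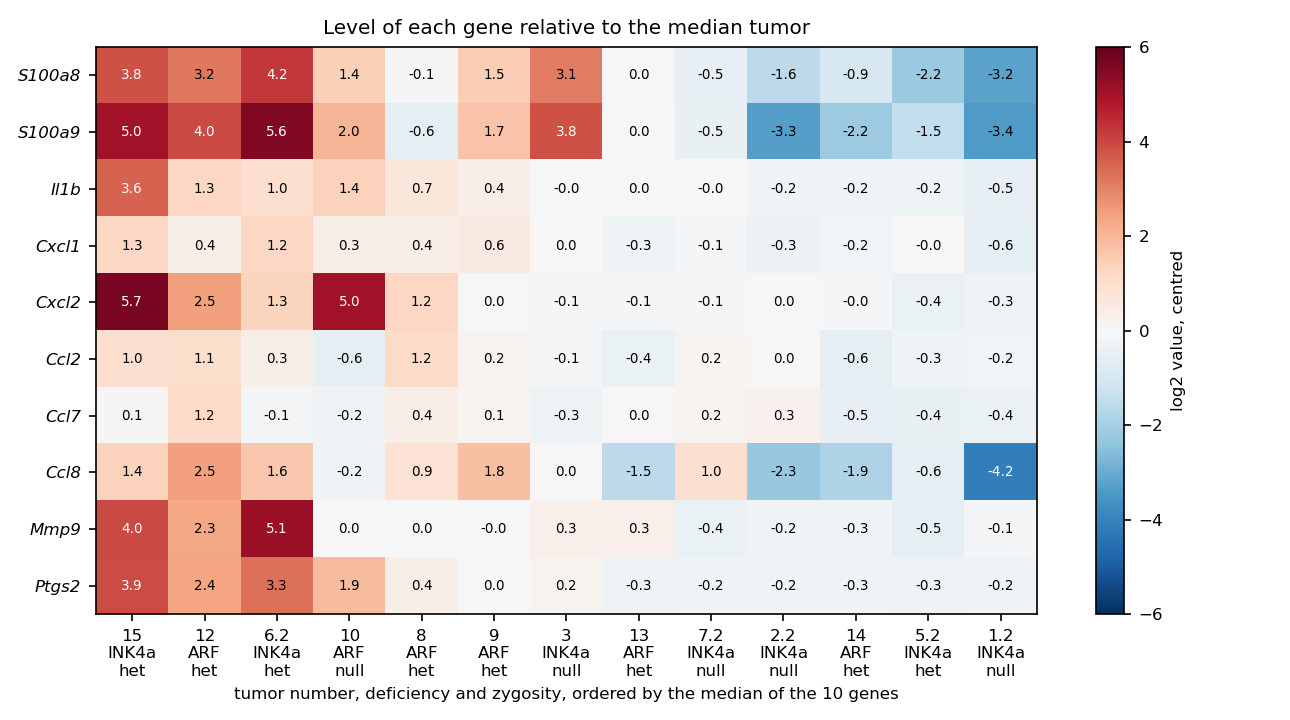
Centred log2 value (color, and the number in each cell) of the 10 genes in the 13 tumors, ordered by the median of the genes. Tumors 15, 12 and 6.2 carry the high values of most genes, tumor 10 has 5 genes above 1, led by Cxcl2 (5.03), S100a9 (2.03) and Ptgs2 (1.92), and tumor 3 only 2, those of S100a8 (3.09) and S100a9 (3.82).

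The study set ARF-deficient against INK4a-deficient melanomas, which form the more and the less malignant tumors of its model. Of the 10 genes, 0 passed an adjusted p under 0.05 in limma, and the background was 0% of the 22626 probe sets tested. At an unadjusted p under 0.05, 0 of the 10 genes and 1115 of all probe sets (4.93%) were found by limma. The exact permutation test also gave 0 of the 10 genes (1069 of all) and the exact Mann-Whitney test named in the methods gave 0 (782 of all). The mean was higher in ARF-deficient melanomas for 7 genes and lower for 3, and the median difference was 0.04 over the 10 genes and 0.01 over all probe sets.

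The largest difference in size was that of Mmp9, with a mean of 0.39 ± 0.96 in ARF-deficient melanomas (SD, n = 6) and 1.15 ± 2.35 in INK4a-deficient melanomas (SD, n = 7). The log2 difference was -0.76 (standard error 0.95, 95% interval -2.82 to 1.30, limma adjusted p = 0.927, exact permutation p = 0.481). Ccl8 differed by 0.69 (interval -1.51 to 2.88, limma adjusted p = 0.933), with means of 0.26 ± 1.77 in ARF-deficient and -0.43 ± 2.13 in INK4a-deficient melanomas. S100a9 had means of 0.826 ± 2.19 in ARF-deficient and 0.827 ± 3.89 in INK4a-deficient melanomas, a difference of -0.000895 with a 95% interval of -3.59 to 3.59. That interval shows the precision: for S100a9 neither a large rise nor a large fall could be told from the spread. The tightest intervals were those of Ccl7 (0.27, -0.23 to 0.78), Cxcl1 (0.01, -0.66 to 0.67) and Ccl2 (0.01, -0.70 to 0.71). For the other members the differences were 0.32 for S100a8, 0.07 for Il1b, 0.57 for Cxcl2 and -0.25 for Ptgs2. Two-sided exact permutation p-values over all 1716 splits of the tumors lay between 0.316 and 0.999 for the 10 genes, where 0.000583 is the smallest possible.

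Without INK4a heterozygous tumors 15 and 6.2, an alternative chosen after seeing the data, the mean of all 10 genes was higher in ARF-deficient melanomas, S100a9, Mmp9 and Ptgs2 now among them, with a median difference of 0.81. For every gene but Ccl7 these were the highest INK4a-deficient tumors, so leaving them out raises those differences by construction. Il1b then differed by 0.78 (95% interval 0.17 to 1.40) and Cxcl1 by 0.42 (0.04 to 0.81), and in limma both had an adjusted p of 0.752. Without ARF heterozygous tumor 12 as well, the median difference was 0.57. Il1b then differed by 0.65 (0.05 to 1.25) and Cxcl1 by 0.39 (-0.02 to 0.81), and in limma both had an adjusted p of 0.953. The tumors whose label has no decimal ending are the 6 ARF-deficient ones and 2 INK4a-deficient ones, 15 and 3. Those 2 were high for S100a8 (3.82 and 3.09) and S100a9 (5.04 and 3.82). In this subset S100a8 (-2.61, interval -4.84 to -0.38) and S100a9 (-3.60, interval -6.92 to -0.29) had lower means in ARF-deficient melanomas. Both had a limma adjusted p of 0.9997.

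Within INK4a-deficient melanomas, null tumors had lower means than heterozygous tumors for 9 of the 10 genes, with a median difference of -2.25 over the 10 genes and 0.04 over all probe sets. Past an adjusted p under 0.05 there were 0 of the 10 genes, and 9 of all probe sets (0.0398%). At an unadjusted p under 0.05, 4 genes were lower in null tumors (Il1b, Cxcl1, Mmp9 and Ptgs2), against 4.31% of all probe sets.

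Cxcl1 stood at -0.59, -0.34, 0.00 and -0.12 in INK4a null tumors 1.2, 2.2, 3 and 7.2, and at 1.26, -0.03 and 1.23 in INK4a heterozygous tumors 15, 5.2 and 6.2. The null tumors lay below tumors 15 and 6.2, and tumor 5.2 lay among them. The log2 difference was -1.08 (standard error 0.32, 95% interval -1.79 to -0.38, limma adjusted p = 0.202).

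Mmp9 had the same layout, with -0.13, -0.23, 0.29 and -0.39 in the null tumors and 3.95, -0.53 and 5.11 in the heterozygous ones, in the same order of tumors. It differed by -2.96 (standard error 1.10, limma adjusted p = 0.287). Ptgs2 stood at -0.21, -0.19, 0.21 and -0.23 in null tumors and 3.90, -0.31 and 3.32 in heterozygous tumors. For both genes, heterozygous tumor 5.2 was lower than every null tumor. Ptgs2 differed by -2.41 (standard error 0.91, limma adjusted p = 0.292) and Il1b by -1.64 (standard error 0.70, limma adjusted p = 0.347). S100a9 had the largest difference, -3.88, with an interval of -8.63 to 0.88. Ccl7, at 0.07 (interval -0.67 to 0.81), was the one gene with a higher mean in null tumors.

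With 4 and 3 tumors, the exact permutation test cannot go below 0.0286, and it gave 0.0571 for Cxcl1, 0.114 for Il1b and 0.143 for Mmp9 and for Ptgs2. The calls turned on single heterozygous tumors. Without tumor 5.2, 3 genes passed the adjusted threshold, all lower in null tumors. They were Mmp9 (-4.65, limma adjusted p = 0.0132), Cxcl1 (-1.51, limma adjusted p = 0.0255) and Ptgs2 (-3.72, limma adjusted p = 0.0263). Of all probe sets, 1.03% passed it and were lower in null tumors, and 423 passed it in either direction. For Mmp9, Cxcl1 and Ptgs2, tumor 5.2 was the lowest heterozygous tumor. Leaving it out kept only tumors 15 and 6.2 in that group and widens these differences by construction. Without tumor 15, 1 gene, Cxcl1, kept an unadjusted p under 0.05, and without tumor 6.2, 2 did, Il1b and Cxcl1. With tumors 15 and 6.2 both left out, a choice made after seeing the data, tumor 5.2 alone stood for the heterozygous group, 0 genes had an unadjusted p under 0.05 in limma, and Mmp9 differed by 0.42. The beta-actin 3'/5' log2 ratio, a measure of RNA quality, was taken between 3' and 5' probe sets that were each centred on the median tumor. It thus compares tumors with one another, and its sign does not show whether 3' or 5' signal was higher. The ratio was 0.23 ± 0.61 in the 4 null tumors and -0.40 ± 0.05 in the 3 heterozygous tumors (mean ± SD). The Gapdh 3'/5' log2 ratio, taken in the same way, was -0.23 ± 0.29 in the null tumors and -0.63 ± 0.10 in the heterozygous tumors. The part of either ratio in these differences was not tested.

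The same 3 INK4a heterozygous tumors served in the comparison with ARF heterozygous melanomas (n = 5), so both comparisons share them. Past an adjusted p under 0.05 there were 0 of the 10 genes, and 1 of all probe sets (0.00442%). At an unadjusted p under 0.05, 1 gene, Mmp9, was lower in ARF heterozygous tumors, against 5.55% of all probe sets.

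Mmp9 stood at 2.32, 0.33, -0.28, 0.01 and -0.02 in ARF heterozygous tumors 12, 13, 14, 8 and 9, against 3.95, -0.53 and 5.11 in INK4a heterozygous tumors 15, 5.2 and 6.2. The groups overlapped, since tumor 5.2 lay below all 5 ARF heterozygous tumors. The difference was -2.37 (standard error 1.05, 95% interval -4.68 to -0.06, limma adjusted p = 0.372). The exact permutation p was 0.179, with 0.0179 the smallest possible. In limma the unadjusted p of Mmp9 was no longer under 0.05 with a variance trend (0.0865), with only the arrays of both groups (0.0897), or without any one of tumors 13, 14, 8, 9, 15 or 6.2. The difference was -1.24 without tumor 6.2.

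Ptgs2 differed by -1.87 (interval -3.80 to 0.05) and Cxcl1 by -0.64 (-1.31 to 0.04), and Ccl7 had a higher mean in ARF heterozygous tumors (0.39, -0.32 to 1.09). Without tumor 5.2, 1 gene, Mmp9, passed the adjusted threshold (-4.06, limma adjusted p = 0.0274). Of all probe sets, 0.362% passed it and were lower in ARF heterozygous tumors, and 104 passed it in either direction. Tumor 5.2 was the lowest INK4a heterozygous tumor for Mmp9. Leaving it out kept only tumors 15 and 6.2 in that group and widens the Mmp9 difference by construction. With tumors 15 and 6.2 left out, a choice made after seeing the data, tumor 5.2 alone stood for INK4a heterozygous tumors and was assumed to vary like the other groups. All 10 differences were then positive, and Mmp9 differed by 1.004 (limma adjusted p = 0.695). The single ARF null tumor was not tested on its own. The beta-actin 3'/5' log2 ratio between centred probe sets was 0.60 ± 0.78 in the 5 ARF heterozygous tumors (mean ± SD). It was -0.40 ± 0.05 in the 3 INK4a heterozygous tumors. The Gapdh ratio was 0.18 ± 0.82 in ARF heterozygous and -0.63 ± 0.10 in INK4a heterozygous tumors. The part of either ratio was not tested.

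**Figure D3:**
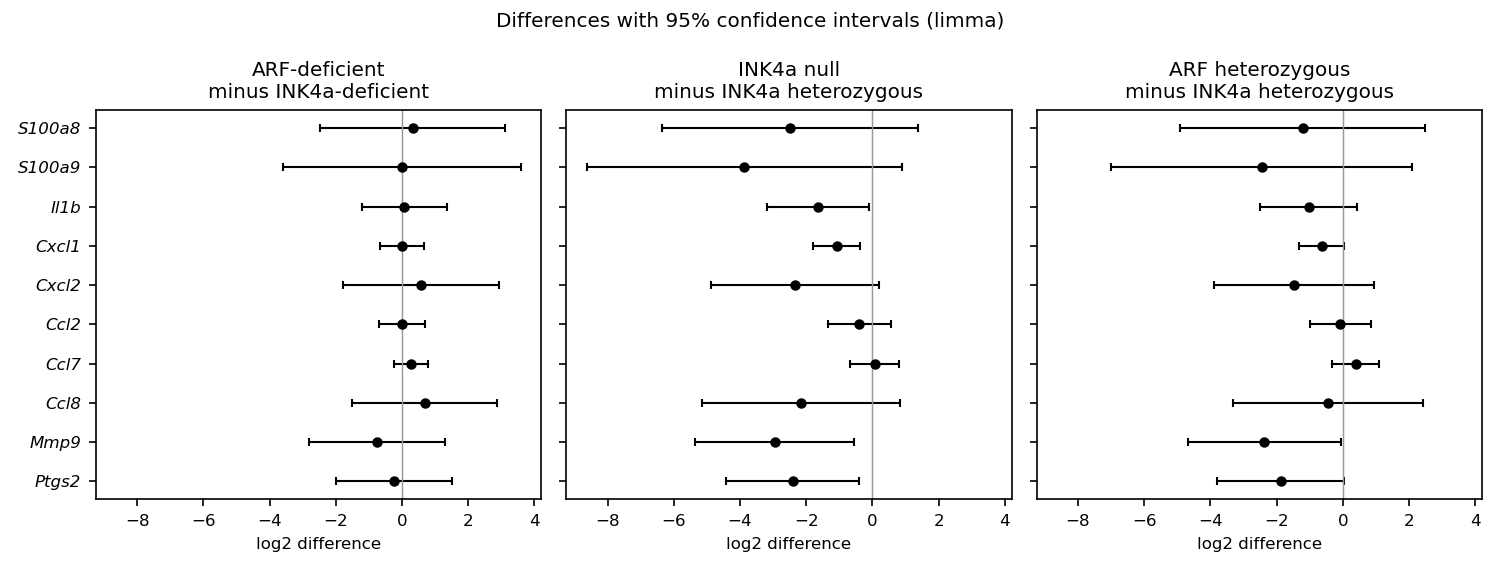
Log2 difference (horizontal axis) of each gene in 3 comparisons, with 95% confidence intervals from limma. Between ARF-deficient and INK4a-deficient melanomas all 10 intervals include 0; between INK4a null and INK4a heterozygous tumors those of Il1b, Cxcl1, Mmp9 and Ptgs2 do not, before adjustment.

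The genes were then compared with one another over the tumors. All 45 pairs had a positive Pearson r and a positive Spearman rho, with a median r of 0.652 (range 0.258 to 0.976) and a median rho of 0.714. After Benjamini-Hochberg adjustment over the 45 pairs, 24 had an adjusted permutation p under 0.05 for r, 30 for rho and 23 for both. The share among pairs of all probe sets was not computed, so these counts are not shown to be particular to the 10 genes. Among the 22625 other probe sets ordered by r with S100a8, S100a9 was number 1 and Il1b number 897. In the same order for Cxcl1, Cxcl2 was number 913. The points share libraries and normalization. The median r was 0.613 within ARF-deficient and 0.767 within INK4a-deficient melanomas, with 45 of 45 pairs positive in each.

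The neighbors S100a8 and S100a9, whose products form one complex, were the closest pair (r = 0.976, permutation p = 1e-05, the smallest 100000 resamples can give, adjusted 0.000225; rho = 0.973, permutation p = 1e-05, adjusted 0.00045). Among the 22625 other probe sets, each was the one most like the other. The relation was 0.962 without tumors 6.2 and 15, the farthest from the median, and 0.990 within ARF-deficient and 0.979 within INK4a-deficient melanomas.

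Il1b and Cxcl2 were the next pair (r = 0.916, permutation p = 1e-05, adjusted 0.000225; rho = 0.891, permutation p = 0.00012, adjusted 0.0027). Leaving out tumors 15 and 10 gave r = 0.927, and r was 0.891 within ARF-deficient and 0.992 within INK4a-deficient melanomas. No probe set was more like Cxcl2 than Il1b was.

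Il1b also followed Ptgs2, which interleukin 1 beta is known to induce (r = 0.890, permutation p = 0.0001, adjusted 0.0009; rho = 0.781, permutation p = 0.00233, adjusted 0.00744). This r was 0.854 without tumors 15 and 10, and 0.938 within ARF-deficient and 0.896 within INK4a-deficient melanomas. Cxcl1, by contrast with its neighbor Cxcl2, lay closer to S100a9 (r = 0.825) and to Ptgs2 (0.858) than to Cxcl2 (0.653, permutation p = 0.0172, adjusted 0.0343). Without tumors 15 and 6.2, r of Cxcl1 was 0.681 with S100a9, 0.576 with Ptgs2 and 0.533 with Cxcl2. In the same order it was 0.581, 0.473 and 0.392 within ARF-deficient and 0.881, 0.963 and 0.795 within INK4a-deficient melanomas. The differences between r values were not tested.

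The monocyte chemokines Ccl2 and Ccl7 ran together (r = 0.750, permutation p = 0.00173, adjusted 0.00521; rho = 0.769, permutation p = 0.00319, adjusted 0.00897). The r was 0.569 without tumors 8 and 12, and 0.866 within ARF-deficient and 0.553 within INK4a-deficient melanomas. Ccl7 had r between 0.258 and 0.371 with S100a8, S100a9, Il1b, Cxcl1, Cxcl2, Mmp9 and Ptgs2, none with an adjusted permutation p under 0.05. Within ARF-deficient melanomas these r values lay between 0.172 (Cxcl2) and 0.877 (Mmp9), and within INK4a-deficient melanomas between 0.0908 (S100a9) and 0.353 (Cxcl2). The r of Ccl7 with Mmp9 was 0.275 over all tumors, 0.763 without tumors 15 and 6.2, and 0.172 without tumor 12 as well.

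Mmp9 and Ptgs2 had r = 0.902 (permutation p = 0.00068, adjusted 0.00278) and rho = 0.714 (permutation p = 0.00771, adjusted 0.0151). This r was 0.746 without tumors 6.2 and 15, and 0.685 within ARF-deficient and 0.972 within INK4a-deficient melanomas. It was lower without the 3 tumors that were high for Mmp9, a removal that also narrows the range of Mmp9. With tumors 15, 6.2 and 12 left out, a choice made after seeing the data, r between Mmp9 and Ptgs2 was 0.267 over the other 10 tumors, while Mmp9 had r = 0.644 with S100a8 and 0.589 with S100a9. Over the same 10 tumors r was 0.949 for S100a8 and S100a9, 0.896 for Il1b and Cxcl2, 0.898 for Il1b and Ptgs2, and 0.751 for Ccl2 and Ccl7. The median over all pairs was then 0.418, with 43 of 45 positive; the exceptions were Ccl2 with Cxcl2 (-0.12) and with Ptgs2 (-0.08).

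**Figure D4:**
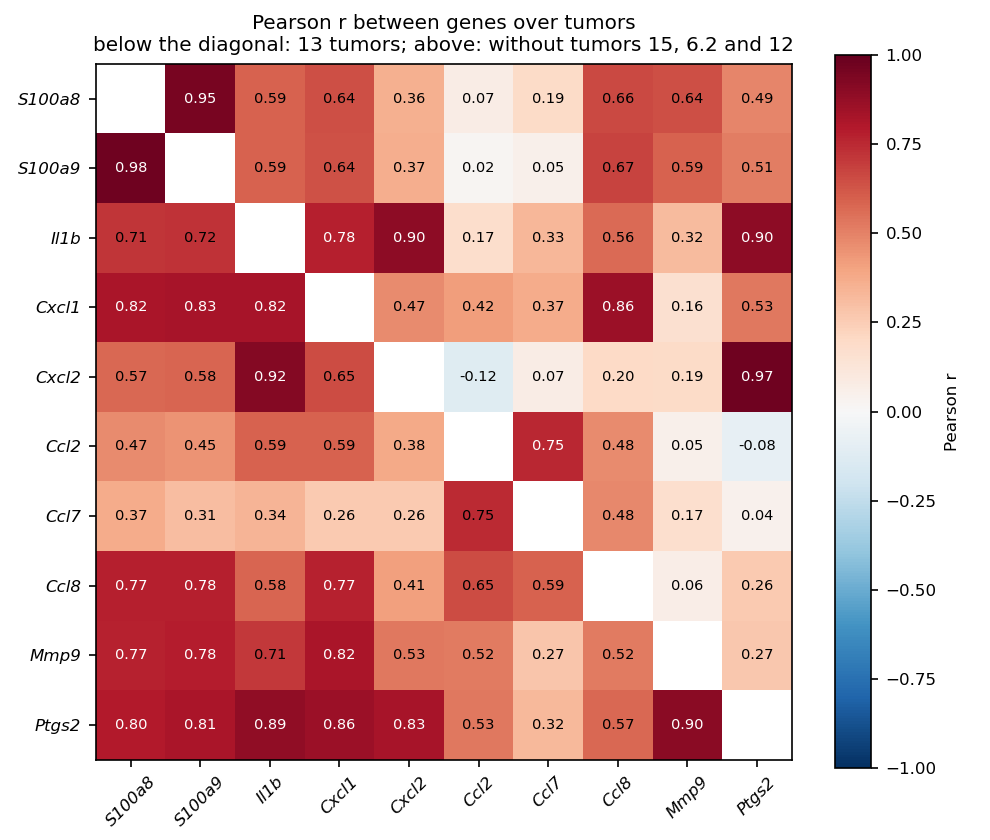
Pearson r of each pair of genes over all 13 tumors (below the diagonal) and over 10 tumors, without 15, 6.2 and 12 (above it). Below the diagonal all 45 values are positive; above it S100a8 with S100a9 stays at 0.95 while Mmp9 with Ptgs2 is 0.27.

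**Figure D5:**
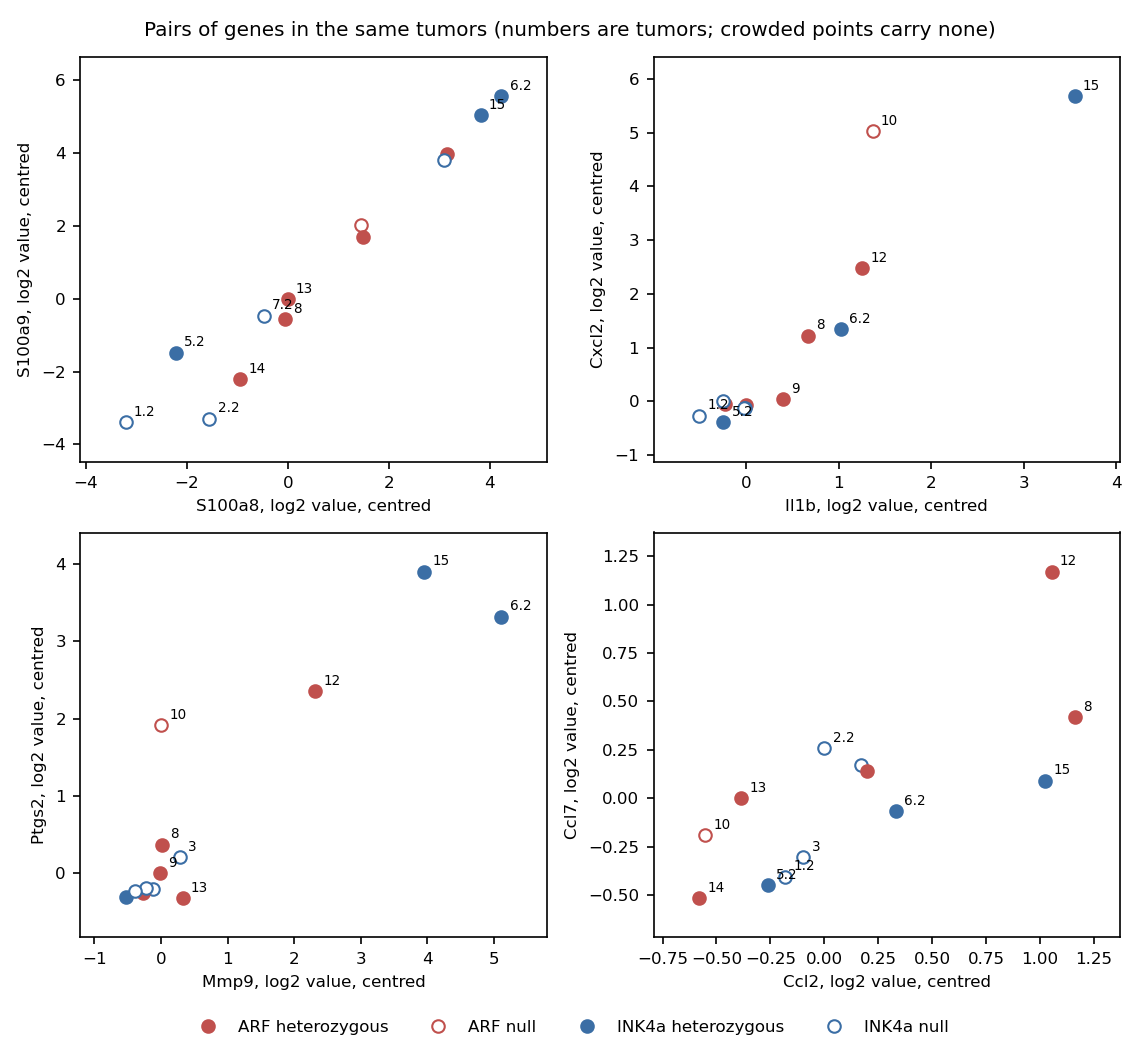
Centred log2 values of 4 pairs of genes in the same 13 tumors; filled circles are heterozygous and open circles null tumors. S100a8 and S100a9 lie along one line in both genotypes. In tumor 10 both Cxcl2 (5.03) and Il1b (1.37) are next highest after tumor 15. For Mmp9, tumors 15, 6.2 and 12 lie apart from the other 10.

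For 5 of the genes a member was among the 3 most similar probe sets: S100a8 and S100a9 for each other, Il1b and Cxcl2 for each other, and Mmp9 for Ptgs2. Mmp9 had 113 other probe sets with r above 0.9, S100a8 had 46 and S100a9 26, and Ccl2 and Ccl7 had 1 each. These other probe sets carry no gene name in the files.

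RNA quality, read from the 3'/5' log2 ratios of beta-actin and Gapdh between centred probe sets, showed no relation with the genes that passed the test. Over 20 relations (10 genes and 2 ratios), Pearson r lay between -0.297 and 0.390, and the smallest adjusted permutation p was 0.868 for r and 0.991 for rho. The values for Ccl7 and the beta-actin ratio, the highest of these, were r = 0.390 and rho = 0.429, with r = 0.231 within ARF-deficient and 0.493 within INK4a-deficient melanomas. Within INK4a-deficient melanomas, r with the Gapdh ratio lay between -0.515 (Cxcl2) and 0.321 (Ccl7). It was -0.512 for Ptgs2, -0.475 for Il1b, -0.470 for Mmp9 and -0.421 for Cxcl1. The r values within groups were not tested.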

How the data were processed

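RNA of each melanoma was hybridized by the authors to an Affymetrix mouse array, 1 per tumor. The values are log2 values as deposited, computed by the authors with GeneSpringGX. Every one of the 22690 probe sets has 0 as its median over the 13 arrays, so the values were centred and hold no levels, and the methods' filter on expression was not repeated. The base of the logarithm was assumed to be 2. How probes were summarized and arrays normalized is not stated. No further normalization was applied. The authors' deposited list of 122 probe sets, chosen for a change on these tumors, holds 0 of the 10 members and was not used. Tests covered 22626 probe sets, without the 64 controls of the array.

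Linear models were fitted in R 4.3.3 with limma 3.58.1 (eBayes without a trend, two-sided tests, Benjamini-Hochberg adjustment over all probe sets, threshold 0.05). ARF-deficient and INK4a-deficient tumors were compared in a fit of 2 groups, and heterozygous and null tumors in a fit of the 4 genotype labels over all 13 arrays. The median standard error of the ARF-deficient minus INK4a-deficient difference was 0.15 over all probe sets. For the 10 genes it was larger, from 0.23 (Ccl7) to 1.66 (S100a9), and precision is limited by the number of arrays. The fit was tested on simulated data. Exact permutation and Mann-Whitney tests used all splits of the arrays, and correlations have p-values from 100000 permutations, computed with scipy 1.17.1. The members and gene lists were chosen with earlier results of these data known. All 10 members are named; as identifiers are not paired with genes, 13 lists of pathway and cell type genes are not analysed here. Alternatives covered the variance model, normalization, zygosity, array weights, the endings of labels and the removal of arrays.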

Additional observations from a re-analysis of the deposited data

Results flagged for a closer look

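The gap between the highest or lowest tumor and the next, divided by the range of its group, was above the 95% critical value of Dixon's test in 3 of 20 cases (10 genes in each of 2 groups). By the construction of that test chance exceeds it in about 1 in 20 groups of independent, normally distributed values. The 20 cases share tumors and the genes are correlated, so the number of cases was not tested against chance. Among INK4a-deficient melanomas, tumor 15 stood at 3.55 for Il1b, where the next tumor was at 1.02 (gap over range 0.623), and at 5.68 for Cxcl2, where the next was at 1.34 (0.714). Among ARF-deficient melanomas, tumor 12 stood at 2.32 for Mmp9, where the next was at 0.33 (0.767).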

How the results depend on the processing

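Between ARF-deficient and INK4a-deficient melanomas, 0 of the 10 genes passed an adjusted p under 0.05 in any of 25 alternatives. These were limma fits and the exact permutation and exact Mann-Whitney tests. At an unadjusted p under 0.05, 0 did so except in limma in tumors with no decimal ending (2, S100a8 and S100a9). In limma alternatives chosen after seeing the data, some also did without tumors 15 and 6.2 (2, Il1b and Cxcl1) or 15, 6.2 and 12 (1, Il1b). With no decimal ending the median difference was -1.26. Signs of these differences turned often, and the cause was not tested. In heterozygous tumors only, S100a9, Mmp9 and Ptgs2 kept theirs, at -2.46, -2.37 and -1.87. In the same order they stood at -3.60, -1.73 and -1.38 with no decimal ending and at -0.86, -1.63 and -0.71 with zygosity as a covariate. Ccl7 kept its sign throughout (0.07 to 0.41). The values that follow are of genes whose sign turned. With zygosity as a covariate the differences were -0.26 for S100a8, -0.25 for Il1b, -0.27 for Cxcl1 and -0.21 for Ccl2. In heterozygous tumors only they were -1.22 for S100a8, -1.02 for Il1b, -0.64 for Cxcl1, -1.48 for Cxcl2, -0.076 for Ccl2 and -0.45 for Ccl8. With no decimal ending they were -2.61 for S100a8, -1.19 for Il1b, -0.42 for Cxcl1, -1.33 for Cxcl2, -0.32 for Ccl2 and -0.44 for Ccl8. Array weights gave 0.32 for S100a9 and -0.23 for Ccl2, quantile normalization -0.14 for Ccl2, array medians set to 0 -0.0022 for Cxcl1 and -0.00205 for Ccl2, and the beta-actin ratio as a covariate, chosen after seeing the data, 0.11 for Ptgs2. Without tumors 15 and 6.2, S100a9 was 1.79, Mmp9 0.59 and Ptgs2 0.83; without 12 as well, 1.16, 0.21 and 0.49. Leaving out each array gave -0.30 to 0.94 for S100a8, -0.71 to 0.79 for S100a9, -0.097 to 0.58 for Il1b, -0.13 to 0.18 for Cxcl1, -0.15 to 1.37 for Cxcl2, -0.20 to 0.15 for Ccl2 and -0.58 to 0.25 for Ptgs2.

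Between INK4a null and INK4a heterozygous tumors, leaving out each array gave 0 to 3 genes past the adjusted threshold (3 without tumor 5.2) and -0.081 to 0.19 for Ccl7. Without tumors 15 and 6.2, where the 1 heterozygous tumor left was assumed to vary like the other groups, the differences were 1.67 for S100a8, 0.65 for S100a9, 0.047 for Il1b, 0.26 for Cxcl2, 0.24 for Ccl2, 0.42 for Mmp9 and 0.20 for Ptgs2. Between ARF heterozygous and INK4a heterozygous tumors, leaving out each array gave 0 to 1 gene past the adjusted threshold (1 without tumor 5.2), -1.87 to 0.031 for Il1b, -2.79 to 0.25 for Cxcl2, -0.39 to 0.25 for Ccl2 and -1.16 to 0.099 for Ccl8. Without tumors 15 and 6.2 they were 2.94 for S100a8, 2.07 for S100a9, 0.66 for Il1b, 0.21 for Cxcl1, 1.12 for Cxcl2, 0.55 for Ccl2, 0.96 for Ccl8, 1.004 for Mmp9 and 0.74 for Ptgs2. All 45 pairs kept a positive r in each of 19 alternatives except without tumors 15, 6.2 and 12, where 43 did. The alternatives with other probe sets of the same genes and with annotated probe sets only were not run, since the files name no genes. No paired analysis was possible because no tumor number occurs in more than one group. The files hold no background signal, so what dimness limits is unknown.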
